A study of Mus musculus with 6 samples.

Results

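The 10 genes of fatty acid synthesis studied here were followed through the aorta of young and aged mice. They are Acly, Me1, Acaca, Fasn, Elovl6, Scd1, Scd2, Srebf1, Mlxipl and Thrsp, taken by gene symbol from a table of 55335 genes. All 10 were among the 16612 genes with enough counts to be tested. The study sequenced RNA from the aorta of 3 young mice aged 6 weeks and 3 aged mice aged 6 months, with 1 library per mouse. The mice were wild type (WT), of the strain written c57b6l in the labels and C57BL/6, male, in the methods, and no treatment is named for either group. The methods state that the fat around the vessel was dissected away under a microscope, and that a piece of vessel of about the same length was frozen from each mouse. Aorta wall is mostly smooth muscle, and a mouse of 6 months is a mature adult, which limits what the aged group stands for.

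Fatty acid synthesis turns surplus carbon into fat. ATP citrate lyase (Acly) cuts citrate into cytosolic acetyl-CoA, malic enzyme (Me1) supplies NADPH, acetyl-CoA carboxylase 1 (Acaca) makes malonyl-CoA, and fatty acid synthase (Fasn) builds palmitate from it. Elovl6 then lengthens the chain, and the stearoyl-CoA desaturases Scd1 and Scd2 place a double bond in it. The transcription factors SREBP-1 (Srebf1) and ChREBP (Mlxipl) turn these genes on with insulin and sugar, and the nuclear protein Spot 14 (Thrsp) is induced with them and by thyroid hormone. The program is best known in liver and in fat, where it is also strong in brown fat, and a blood vessel has fat around its wall. Which cells of the aorta carried the program was not tested here.

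The windows before the start sites were searched for short motifs. RefSeq (GRCm38.p6) gave windows of 250 bases before a start for 8 of the 10 genes, 12 windows in all. Scd1 and Scd2 had no entry. The motifs searched, on both strands, were the sterol regulatory element TCACNCCAC, the E-box CACGTG, the CCAAT box CCAAT and the GC box GGGCGG. Of 32851 mouse windows of this length, 1.05%, 6.02%, 33.8% and 32.7% held them, in that order. The windows below are printed in the direction of the gene with matches in capitals, so ATTGG is a CCAAT box and CCGCCC a GC box on the opposite strand. Fasn and Thrsp are shown because both stood many times higher in 1 aged library. Acly is shown because it did so too without a CCAAT box, and Srebf1 because its level did not follow them. Elovl6 and Acaca also stood many times higher in that library, and their windows, not shown, held none of the motifs. The Fasn window is chr11:120824548-120824797, minus strand. The Thrsp window is chr7:97417551-97417800, minus strand, partly inside the gene as GENCODE draws it. The Acly window is chr11:100528001-100528250, minus strand. The Srebf1 window is chr11:60210472-60210721, minus strand, at the innermost of its 3 RefSeq starts.
Fasn: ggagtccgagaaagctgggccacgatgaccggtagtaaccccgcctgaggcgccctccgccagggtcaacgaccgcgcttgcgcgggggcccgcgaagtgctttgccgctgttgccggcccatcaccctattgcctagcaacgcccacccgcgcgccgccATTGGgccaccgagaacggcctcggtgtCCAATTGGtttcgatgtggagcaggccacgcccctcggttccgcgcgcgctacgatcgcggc
Thrsp: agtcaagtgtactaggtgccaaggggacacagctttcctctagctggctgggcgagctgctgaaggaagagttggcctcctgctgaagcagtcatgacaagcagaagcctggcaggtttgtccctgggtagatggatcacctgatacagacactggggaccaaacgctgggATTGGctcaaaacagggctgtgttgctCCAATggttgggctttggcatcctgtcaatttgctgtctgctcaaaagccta
Acly: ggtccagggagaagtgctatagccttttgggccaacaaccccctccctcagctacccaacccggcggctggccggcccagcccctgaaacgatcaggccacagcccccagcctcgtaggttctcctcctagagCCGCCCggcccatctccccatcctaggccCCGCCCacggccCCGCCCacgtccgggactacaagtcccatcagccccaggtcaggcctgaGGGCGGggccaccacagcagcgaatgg
Srebf1: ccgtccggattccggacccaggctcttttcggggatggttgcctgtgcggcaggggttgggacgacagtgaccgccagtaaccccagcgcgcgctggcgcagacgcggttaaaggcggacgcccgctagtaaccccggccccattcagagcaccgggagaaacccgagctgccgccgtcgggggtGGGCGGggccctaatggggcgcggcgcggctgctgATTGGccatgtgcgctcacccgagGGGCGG

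In Fasn the CCAAT boxes begin 90, 62 and 59 bases before the start, and the last 2 overlap in the run CCAATTGG. Thrsp holds 2 CCAAT boxes, at 79 and 52 bases. Acly holds 4 GC boxes, at 117, 88, 76 and 27 bases. The printed Srebf1 window holds GC boxes at 65 and 6 bases and a CCAAT box at 30. Over the 8 genes with a window, 5 held a CCAAT box and 4 a GC box. A gene with several windows has more room for a match. By window, 6 of 12 held a CCAAT box and 5 a GC box, against 33.8% and 32.7% of all mouse windows. The sterol regulatory element and the E-box were each found in 1 gene, Mlxipl, in different windows, at 136 and 98 bases before their starts. No other motif was searched, and a match of letters says nothing of what binds there in aorta.

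Several libraries stood apart in other genes. Total counts lay between 31049632 and 45832185, and the smooth muscle list (7 genes, Acta2 and Tagln among them) summed to 28877 to 41626 CPM, so all 6 libraries carried the markers of the vessel wall. CPM is the count set on 1 common library size, after TMM normalization. Young replicate 1 had 305.6 CPM of Xist, the RNA of the inactive X chromosome, against at most 0.64 elsewhere, and 1.09 CPM of the Y-linked Ddx3y against at least 44.8 elsewhere, which goes against a male mouse. It also had 183.7 CPM over 6 cardiac and skeletal muscle genes, Myl7 and Actc1 among them, against 12.3 to 28.8 in the others. Young replicate 3 had 131.7 CPM over 5 hepatocyte genes, most of it Alb (albumin) at 102 CPM, against 13.2 to 30.0 in the others. The endothelial list (6 genes, Pecam1 and Cdh5 among them) was at 1686 CPM in aged replicate 3 and at 342 to 489 CPM in the others. Aged replicate 2 stood apart in its fat genes, given below. Values are therefore given with all 6 libraries, without aged replicate 2, and without that library and young replicate 1. In tissue RNA, fewer cells of a type and less RNA per cell cannot be told apart.

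The program as a whole followed 1 aged mouse. The 10 genes together took 1.26% of the counts of aged replicate 2, against 0.0793% and 0.0714% in aged replicates 1 and 3. In young replicates 1, 2 and 3 they took 0.301%, 0.179% and 0.107%. Aged replicate 2 was thus the highest of all 6 libraries, and the other 2 aged libraries were the lowest. Of the 10 genes, 8 had their highest level of 6 in aged replicate 2, where 17.7% of all tested genes did. For 7 of them this level was over 2 times that of the next library, where 1.7% of tested genes went so far. The other 2 were Scd2, lowest in that library as were 18.2% of tested genes, and Srebf1, near the middle there.

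**Figure D1:**
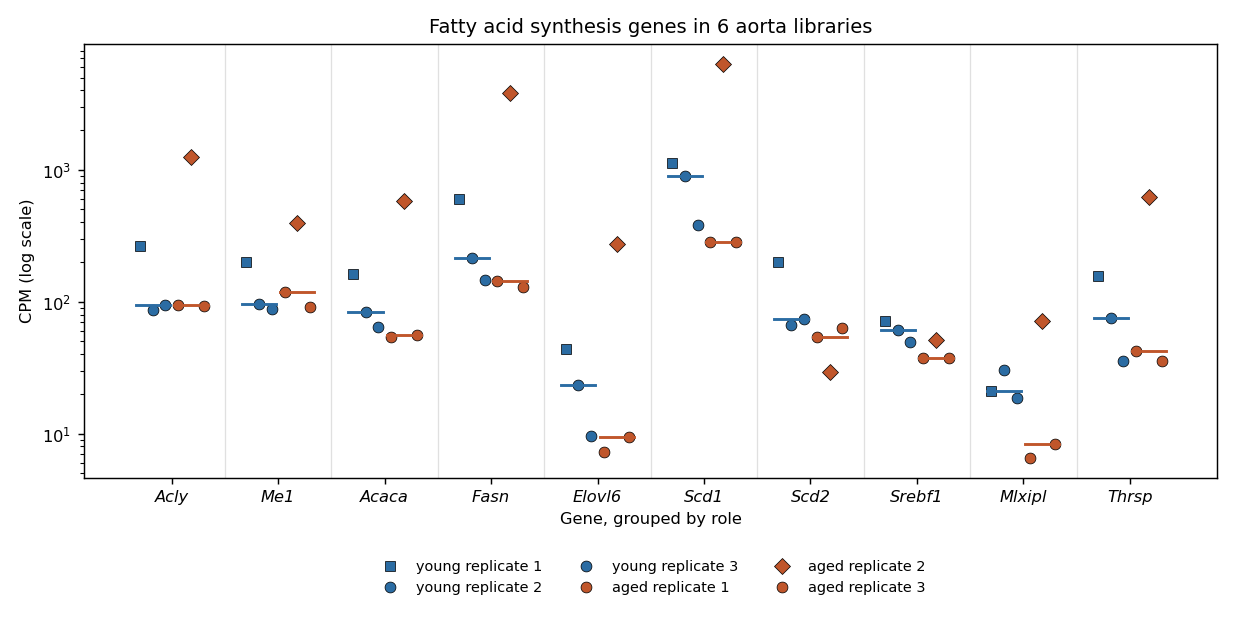
CPM of the 10 fatty acid synthesis genes in each library, on a log axis, with young libraries in blue, aged libraries in orange and short lines at the group medians. Squares mark young replicate 1 and diamonds aged replicate 2, which tops 8 of the 10 genes and is the lowest for Scd2.

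No gene passed the test between the groups. By the quasi-likelihood test of edgeR, adjusted over all genes after Benjamini and Hochberg, 0 of 16612 genes (0.0%) and 0 of the 10 had an adjusted p under 0.05, while 1723 genes had an unadjusted p under 0.05. The lowest adjusted p was 0.189 over all genes and 0.446 over the 10. DESeq2 called 338 genes (2.03%) and none of the 10, and it gave 5 of them (Acly, Acaca, Fasn, Scd1 and Mlxipl) no p, as it did for 47 genes in all through its filter on single extreme counts. Fitted log2 fold changes of aged over young were positive for 8 of the 10 and had a median of 1.27, against 0.02 for all genes. Without aged replicate 2 all 10 were negative, as were 50.9% of all genes in that fit, with a median of -1.08 against -0.01 for all genes. That fit called 110 of 17147 genes (0.642%) and 0 of the 10, with a lowest adjusted p among them of 0.0712. Without young replicate 1 as well, 8 of the 10 were negative and the median was -0.47. With only young replicate 3 left out the median was 0.97, and with only aged replicate 3 left out it was 1.75, with 8 of the 10 positive in each.

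The suppliers of carbon and reducing power come first. Acly, on chromosome 11 of GRCm38 (100476353 to 100528000), stood at 266, 86.7 and 94.5 CPM in young replicates 1, 2 and 3. In aged replicates 1, 2 and 3 it stood at 94.2, 1239.8 and 92.3 CPM. Young replicate 1 was above 4 libraries that lay close together, aged replicate 2 was above all, and the groups overlapped. The log2 fold change was 1.67 ± 1.05 (SE; edgeR adjusted p = 0.607), -0.68 ± 0.50 without aged replicate 2, and 0.05 ± 0.16 without both libraries. Me1, on chromosome 9 (86581371 to 86695953), varied least among the enzymes that stood highest in aged replicate 2. Its values were 199.6, 95.5 and 88.8 CPM in young and 119.1, 394 and 91.1 CPM in aged aorta, so the groups overlapped and aged replicate 2 was at 1.98 times the next library. Its log2 fold change was 0.65 ± 0.59 (SE; edgeR adjusted p = 0.708) and -0.28 ± 0.38 without aged replicate 2. Of the 50-base stretches in Me1's transcripts, 28.3% also occur in other genes, mainly the pseudogenes Gm7049 and Gm48795, and how such reads were counted is not given in the sources used here.

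The enzymes of the synthesis itself spread more widely. Acaca, on chromosome 11 (84129672 to 84401651), had 163.4, 84.1 and 64.3 CPM in young and 53.7, 582 and 55.5 CPM in aged aorta. Aged replicates 1 and 3 lay below every young library and aged replicate 2 above every one. Its log2 fold change was 1.15 ± 0.94 (SE; edgeR adjusted p = 0.680) with all libraries and -0.93 ± 0.39 (adjusted p = 0.368) without aged replicate 2. In Acaca 30.4% of stretches are shared, nearly all with the pseudogene Gm5182, which had 1541 counts in aged replicate 2 and 40 to 366 elsewhere. Fasn, on chromosome 11 (120805846 to 120824547), shares no stretch with another gene. It stood at 603, 215 and 146.4 CPM in young aorta, and at 142.6, 3809 and 129.5 CPM in aged aorta. The level in aged replicate 2 was 26.0 times the median of the other 5 libraries and 6.32 times the highest of them, a fold over the median that 8 of 16612 tested genes reached. The other 2 aged libraries lay just below the lowest young one. Fasn had a log2 fold change of 2.08 ± 1.32 (SE; edgeR adjusted p = 0.607), which became -1.24 ± 0.59 (adjusted p = 0.410) without aged replicate 2 and -0.41 ± 0.23 without both.

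Chain lengthening and desaturation held both the widest range and a gene with the opposite pattern. Elovl6, on chromosome 3 (129532355 to 129638495), had 43.9, 23.2 and 9.62 CPM in young and 7.25, 276 and 9.52 CPM in aged aorta. In aged replicate 2 it was 28.7 times the median of the other libraries, the widest such fold of the 10 genes. Its log2 fold change was 1.93 ± 1.35 (SE; edgeR adjusted p = 0.637) and -1.61 ± 0.60 (adjusted p = 0.322) without that library. Scd1, on chromosome 19 (44394455 to 44407879), is the main desaturase of liver and fat. It stood at 1122, 903 and 384 CPM in young aorta and at 284.9, 6362 and 284.8 CPM in aged aorta. The 2 lower aged libraries were almost equal and below every young library. The log2 fold change of Scd1 was 1.52 ± 1.18 (SE; edgeR adjusted p = 0.665), and -1.49 ± 0.44 (adjusted p = 0.240) without aged replicate 2.

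Scd2, the desaturase known from brain and from early life, was low in that library. It lies on chromosome 19 (44293674 to 44306864), 87590 bases from Scd1 and on the opposite strand. It had 201.7, 66.8 and 74.4 CPM in young and 53.6, 29.3 and 62.9 CPM in aged aorta. All 3 aged libraries lay below all 3 young ones, which held for 8.78% of tested genes and for Scd2 alone among the 10. The log2 fold change was -1.23 ± 0.48 (SE), with an unadjusted p of 0.0363 and an adjusted p of 0.449 (edgeR). It was -0.97 ± 0.50 without aged replicate 2 and -0.27 ± 0.18 without young replicate 1 as well, so most of its size rests on these 2 libraries. Of the 10 genes, Scd2 and Srebf1 had an unadjusted p under 0.05 and lower levels in aged aorta, as did 4.82% of tested genes.

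Within a library Scd1 can be weighed against Scd2 per length, in FPKM, which scales the count for gene length and library. Scd1 made up 86.1%, 93.8% and 85.2% of their sum in young replicates 1, 2 and 3. In aged replicates 1, 2 and 3 it made up 85.6%, 99.6% and 83.5%. Aged replicate 2 was almost wholly Scd1, and the other aged libraries lay at or just below the low end of the young, so the groups overlapped. The means were 88.4% ± 4.71 (SD, n = 3) and 89.6% ± 8.75 (SD, n = 3), a difference of 1.18 percentage points (p = 0.9 in a two-sided exact permutation test, which with 3 against 3 cannot fall under 0.1). Of the 50-base stretches, 4.56% of those in Scd1 and 3.97% of those in Scd2 occur in other genes, mostly each other and Scd3.

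The regulators did not all go with their targets. Srebf1, on chromosome 11 (60199089 to 60222581), had the least spread of the 10 genes. It stood at 71.8, 61.2 and 49.6 CPM in young and at 37.5, 50.9 and 37.2 CPM in aged aorta. Aged replicate 2 lay just above the lowest young library, at 1.03 times the median of the other 5, while Fasn was at 26.0 times. Srebf1 had a log2 fold change of -0.54 ± 0.21 (SE; unadjusted p = 0.0326, adjusted p = 0.446 in edgeR), -0.70 ± 0.20 without aged replicate 2 and -0.57 ± 0.18 without both. Its direction was the same with each set of libraries. The table does not separate its SREBP-1a and SREBP-1c transcripts.

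Mlxipl, the glucose-responsive factor, lies on chromosome 5 (135089890 to 135138382). It had 21.2, 30.4 and 18.8 CPM in young and 6.56, 71.0 and 8.39 CPM in aged aorta. Aged replicates 1 and 3 lay below every young library, and aged replicate 2 above every one. With all libraries the log2 fold change was 0.29 ± 0.85 (SE; edgeR adjusted p = 0.919). Without aged replicate 2 it was -1.65 ± 0.28 with an unadjusted p of 0.00077 and an adjusted p of 0.0712 (edgeR), short of the threshold, and without both it was -1.71 ± 0.32. Thrsp, on chromosome 7 (97412938 to 97417730), followed the enzymes. It stood at 155.9, 74.7 and 35.3 CPM in young and at 42.1, 620 and 35.7 CPM in aged aorta. The groups overlapped, and aged replicate 2 was at 14.7 times the median of the other libraries. The log2 fold change of Thrsp was 1.39 ± 1.12 (SE; edgeR adjusted p = 0.678) and -1.19 ± 0.57 (adjusted p = 0.417) without that library.

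**Figure D2:**
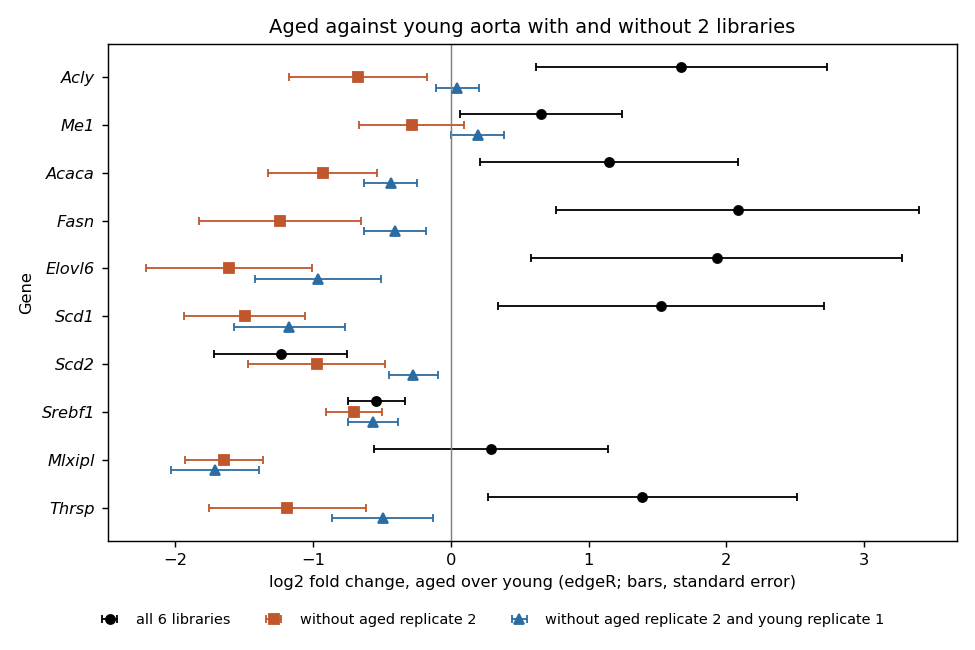
Fitted log2 fold change of aged over young aorta for the 10 genes, with bars for the standard error, from all 6 libraries (black circles), without aged replicate 2 (orange squares) and without aged replicate 2 and young replicate 1 (blue triangles). All 10 orange squares lie left of 0, while 8 of the 10 black circles lie right of it.

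Of the 10 genes, 7 (Acaca, Fasn, Elovl6, Scd1, Scd2, Srebf1 and Mlxipl) were lower in both aged replicates 1 and 3 than in every young library, where 15.8% of tested genes were. Without aged replicate 2, Elovl6, Scd1, Srebf1 and Mlxipl had an unadjusted p under 0.05 with lower levels in aged aorta, as did 5.57% of tested genes. In that fit the fat marker lists described below were mostly lower too. Log2 fold changes were negative for 14 of 15 adipocyte genes (median -0.85) and 7 of 8 brown fat genes (median -1.385). The median of the 10 genes was -1.08, and 50.9% of all genes were negative. Fibroblast and macrophage markers were high in aged replicates 1 and 3. The fibroblast list (6 genes, Dcn and Col1a1 among them) summed to 6578 and 4830 CPM in them, against 1704 in aged replicate 2 and 1858 to 2856 in young aorta. Col1a1 did not follow this sum in aged replicate 3, at 1282 CPM against 1559 CPM in young replicate 3. The macrophage list (6 genes, C1qa and C1qb among them) summed to 213.5 and 156.2 CPM, against 72.5 and 48.7 to 63.2. Among the young, young replicate 1 had the highest level of 9 of the 10 genes, with Mlxipl the exception, at up to 2.82 times the next young library for Acly. The share of all tested genes for which this held is not given here, so the count is not read as particular to the 10. The part of these cell types in the levels was not tested.

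Most fat markers were also high in aged replicate 2. Adipoq, the hormone adiponectin, was at 38.7, 87.1 and 17.8 CPM in young and at 13.5, 94.3 and 23.5 CPM in aged aorta. Plin1, which coats the lipid droplets of fat cells, was at 25.7, 73.0 and 13.5 CPM and at 7.31, 128.9 and 12.5 CPM. Both were highest in aged replicate 2, followed by young replicate 2, whose Fasn and Acly levels were not the next highest. The adipocyte list (15 genes, Fabp4 and Cfd among them) had 11 members highest in aged replicate 2 and summed to 1197 to 2668 CPM in young and 1270 to 3754 CPM in aged libraries. Its genes Lep, Retn, Car3 and Cfd were not highest in aged replicate 2. Cfd was at 55.5 CPM there, 0.64 times the median of the other libraries. Lep, leptin, was at most 3.59 CPM in any library. Ucp1, the uncoupling protein of brown fat, was at 153, 361 and 45.2 CPM in young and at 48.6, 1422 and 67.4 CPM in aged aorta. The brown fat list (8 genes, Ucp1 and Cidea among them) had 5 members highest in aged replicate 2 and summed to 240.5 to 750.5 CPM in young and 241.7 to 2014 CPM in aged libraries. Ucp1 in aged replicate 2 was at 21.1 times the median of the other libraries and Cidea at 10.7 times, folds of the size of those of Scd1, at 16.6, and Acly, at 13.2. Cox7a1, Cox8b and Kcnk3 of the brown fat list were also highest in aged replicate 2. They stood at 16.045, 9.34 and 7.4 times the median of the other libraries. The remaining genes of that list did not rise so. In aged replicate 2 Dio2 was the lowest of the 6 libraries, at 42.3 CPM. Prdm16, at 77.8 CPM, and Ppargc1a, at 5.62 CPM, were not highest there. No gene of either list was at 0 in all libraries.

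**Figure D3:**
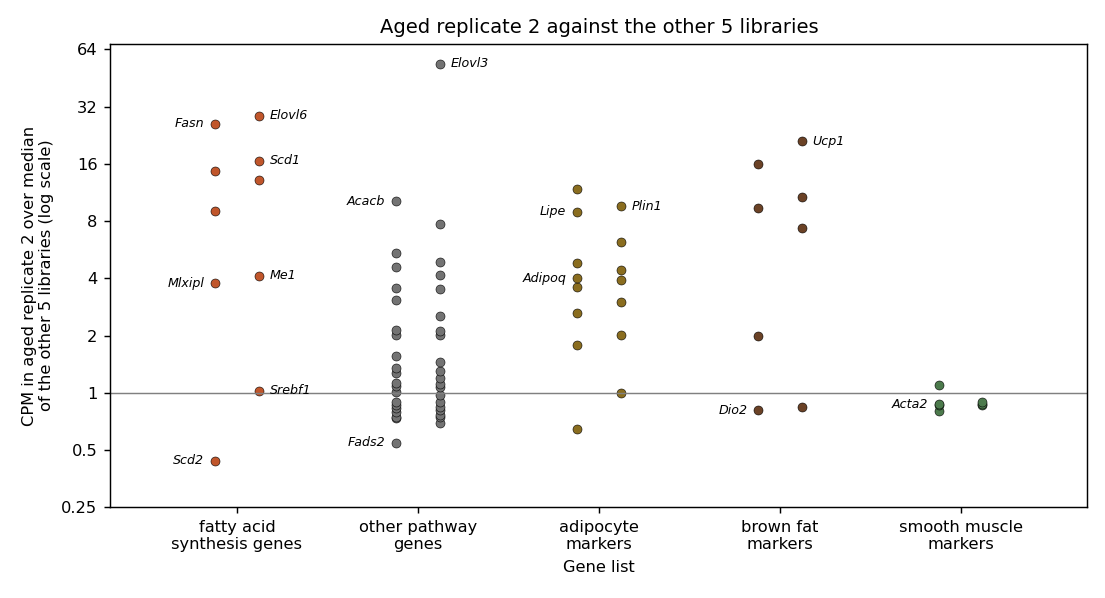
CPM in aged replicate 2 divided by the median CPM of the other 5 libraries, on a log axis, for the 10 fatty acid synthesis genes, 40 other pathway genes, and markers of adipocytes, brown fat and smooth muscle, with 1 point per gene. Fasn at 26.0 and Elovl6 at 28.7 lie above all markers shown, Ucp1 at 21.1 lies above the other 8 members, and Scd2 lies below the line at 1.

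The levels were also set against the adipocyte list, which shares no gene with the brown fat list. Whether its genes follow white or brown fat was not tested. The mean log2 CPM of the 15 adipocyte markers was 5.43, 5.98 and 4.38 in young and 4.42, 6.47 and 4.74 in aged libraries. Relative to this mean, 6 genes (Acly, Acaca, Fasn, Elovl6, Scd1 and Thrsp) were highest in aged replicate 2. For Fasn the difference was 5.43 log2 units there and at most 3.81 in the others, in young replicate 1. Me1 was highest in aged replicate 1, Srebf1 and Mlxipl in young replicate 3 and Scd2 in young replicate 1. Srebf1, at -0.78, and Scd2, at -1.57, were lowest in aged replicate 2. The mean subtracted was itself highest in that library, so a gene that did not rise there falls on this scale. In CPM, before the subtraction, Srebf1 was near the middle of the 6 libraries there, at 50.9, while Scd2 was lowest. With the mean as a covariate in edgeR, log2 fold changes lay between -1.32 (Scd2) and 0.57 (Acly), and no adjusted p was below 0.375, that of Srebf1 at -0.54 ± 0.16 (SE). How much of each level came from fat cells was not tested.

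**Figure D4:**
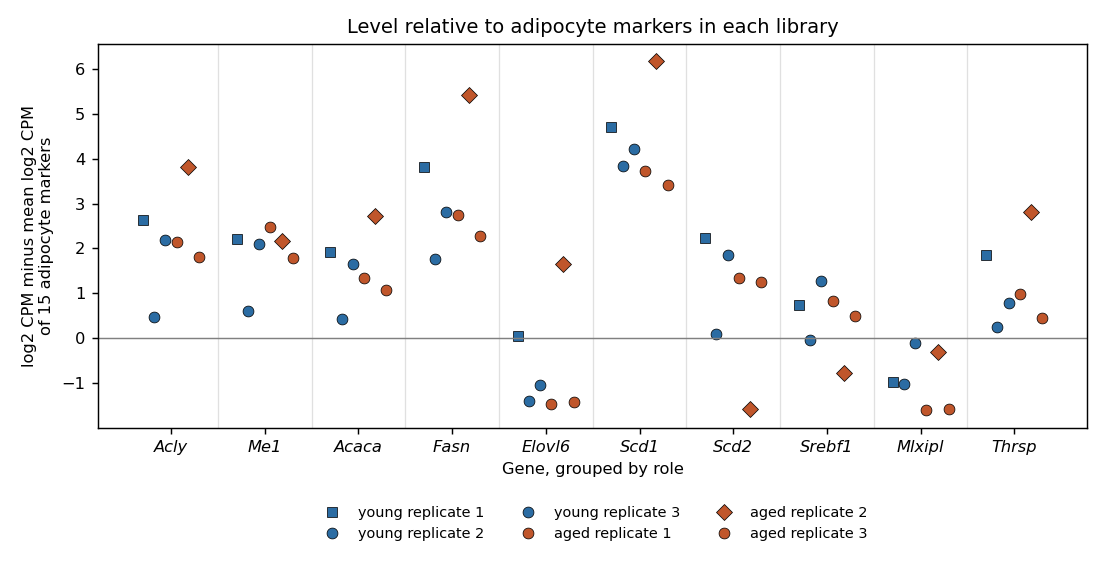
Log2 CPM of each of the 10 genes minus the mean log2 CPM of 15 adipocyte markers in the same library, with young libraries in blue and aged libraries in orange, squares for young replicate 1 and diamonds for aged replicate 2. The diamond is the highest point for 6 genes and the lowest for Scd2 and Srebf1. The mean subtracted is itself highest in aged replicate 2.

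The order of the genes in a group can be read only per length. In young aorta the median FPKM was 180.6 for Scd1, 33.4 for Thrsp, 24.3 for Me1, 19.3 for Fasn, 17.9 for Acly, 13.6 for Scd2, 10.6 for Srebf1, 4.84 for Acaca, 3.63 for Mlxipl and 3.52 for Elovl6. Only Scd1 and Thrsp, among neighbours in this order, had ranges that did not overlap. In aged aorta Scd1 led again, with a median of 49.6 FPKM, followed by Me1 at 26.4, Thrsp at 16.4, Acly at 15.3 and Fasn at 11.1. Mlxipl at 1.21 and Elovl6 at 1.19 were last in aged aorta. Aged ranges were wide because of aged replicate 2, whose Scd1 reached 1111 FPKM, and only Fasn and Scd2 had neighbouring ranges apart.

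The 10 genes varied together across the libraries, with 2 exceptions. The correlation (Pearson's r over the 6 libraries, on log2 CPM) of a gene with the mean of the other 9 was 0.99 for Acaca, Elovl6 and Thrsp, and 0.98 for Fasn and Scd1. It was 0.94 for Acly, 0.93 for Me1, 0.85 for Mlxipl, 0.51 for Srebf1 and -0.26 for Scd2. Over the 5 libraries without aged replicate 2 the value was still 1.00 for Acaca, 0.97 for Fasn and Elovl6, 0.96 for Thrsp and 0.93 for Scd1. It was higher there for Srebf1, at 0.93, and for Scd2, at 0.90. It was lower for Acly, at 0.83, Me1, at 0.75, and Mlxipl, at 0.62. These values describe 6 libraries that differ in fat, in fibroblast genes and in 1 mouse's Xist.

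Other genes of fatty acid metabolism were read from lists of 42 genes, of which 40 were tested and none was called. Of the 40, 3 were higher and 2 lower in aged aorta at an unadjusted p under 0.05, as were 5.56% and 4.82% of all tested genes, and the median log2 fold change was 0.00, against 0.02 for all genes. Without aged replicate 2, 30 of the 40 had a negative log2 fold change, against the 50.9% of all genes given above, and 2 of them had an unadjusted p under 0.05. Enzymes that feed synthesis with acetyl-CoA and NADPH were, like the enzymes above other than Scd2, all 5 of 5 highest in aged replicate 2. Of all tested genes, 17.7% were highest there. G6pdx, the first enzyme of the pentose phosphate pathway, was at 60.9, 47.6 and 40.1 CPM in young and at 56.7, 117.7 and 55.0 CPM in aged aorta, and its log2 fold change was 0.63 ± 0.33 (SE). Idh1, the cytosolic isocitrate dehydrogenase, was at 36.3, 58.0 and 40.9 CPM in young and at 68.5, 71.5 and 55.0 CPM in aged aorta, with aged replicate 3 inside the young range. Its log2 fold change was 0.53 ± 0.22 (SE; edgeR adjusted p = 0.469). Idh1 stood little apart in aged replicate 2, at 1.04 times the next library and 1.30 times the median of the other 5. A fold over the median of this size was reached by 19.1% of tested genes. Genes that store fatty acids as glycerides were likewise 5 of 5 highest in aged replicate 2. Gpam, which puts the first fatty acid on glycerol phosphate, reached 110.5 CPM there and 23.8 to 48.1 CPM elsewhere. Lpin1, a phosphatidate phosphatase, reached 98.3 CPM there and 16.4 to 28.8 CPM elsewhere.

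Elongation and desaturation genes were mixed, with 6 of 14 highest and 4 lowest in aged replicate 2, against 17.7% and 18.2% of all tested genes. Hsd17b12, the ketoacyl-CoA reductase of the elongation cycle, was at 22.7, 62.3 and 29.5 CPM in young and at 63.97, 132.3 and 62.2 CPM in aged aorta. Its groups met at young replicate 2, and its log2 fold change was 1.18 ± 0.45 (SE; edgeR adjusted p = 0.448). Fads2, the delta-6 desaturase of polyunsaturated fatty acids, was at 79.3, 87.0 and 84.3 CPM in young and at 66.2, 43.4 and 65.8 CPM in aged aorta. Its 3 aged libraries lay below all 3 young ones, as for 8.78% of tested genes, and it was lowest in aged replicate 2, as Scd2 was. Its log2 fold change was -0.51 ± 0.20 (SE; edgeR adjusted p = 0.446). Elovl3, an elongase known from brown fat, is given after its values were seen. It was at 80.3 CPM in aged replicate 2 and at 0.26 to 6.67 CPM elsewhere, the widest fold among these genes.

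Regulators beside the 3 above showed little of this. Of 16, 2 were highest and 5 lowest in aged replicate 2, as were 17.7% and 18.2% of all tested genes. A negative log2 fold change was seen for 14, with a median of -0.18 against 0.02 for all genes. The share of all tested genes with a negative value in this fit is not given here. The count of 14 is therefore not read as particular to regulators. Srebf2, the factor of the sterol genes, was at 114.8, 85.3 and 81.4 CPM in young and at 77.5, 61.1 and 56.7 CPM in aged aorta. As for Scd2 and 8.78% of tested genes, all aged libraries lay below all young ones. The log2 fold change of Srebf2 was -0.53 ± 0.20 (SE; edgeR adjusted p = 0.446). Mid1ip1, a relative of Thrsp that activates acetyl-CoA carboxylase, was at 19.5, 32.2 and 13.6 CPM in young and at 37.6, 34.4 and 39.1 CPM in aged aorta. Its aged libraries all lay above the young ones, and aged replicate 2 did not stand apart. The share of tested genes with such a separation upward is not given here, and Mid1ip1 was named for its small unadjusted p. Mid1ip1 had a log2 fold change of 0.77 ± 0.30 (SE; edgeR adjusted p = 0.450).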

How the data were processed

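RNA of mouse aorta was sequenced single-ended with a read length of 50 bases, in 3 young and 3 aged libraries grouped by the age in the labels. The authors deposited a table of whole-number counts per gene and a table of FPKM, in which counts are scaled for gene length and library. Both tables give gene symbols. The submitters' processing notes name the build mm10. The aligner, counting tool, strand setting and annotation are not given in the sources used here. Of 55335 identifiers, 55154 were found in GENCODE M21 (GRCm38), used for coordinates, shared exons and shared 50-base stretches.

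Counts were filtered with edgeR 4.0.16 in R 4.3.3 (filterByExpr by group, minimum count 10, minimum total 15), scaled by TMM and fitted by quasi-likelihood without covariates. P values were adjusted over all genes tested (Benjamini-Hochberg, threshold 0.05). The fit was also run on simulated counts with known changes. No simulated library was made to stand apart as aged replicate 2 does, so the run does not test the fit under such a library. The labels number the replicates only as repeats and the design text gives 3 mice a group, so p-values measure the spread between these libraries. For 2 groups in general the study names Student's or the Wilcoxon test, with nothing specific to these counts.

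The members and gene lists were chosen with earlier results of these data known. Named genes are the 10 members, the 2 genes with the smallest unadjusted p of each of 4 pathway lists and any called, the 8 genes most like the members across libraries, the 2 most abundant of each marker list given, and Adipoq, Plin1, Lep, Ucp1, Xist and Ddx3y. Folds of aged replicate 2 ranked over all genes had 0.5 CPM added.

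Each of these was varied in turn: size factors (RLE), the filter (none, or 10 counts in every library), a replicate block, DESeq2 1.42.0, limma 3.58.1 on log2 FPKM plus 1 or 0.1, robust fitting, the adipocyte mean as a covariate, and each library left out. Leaving out young replicate 1 and aged replicate 2 together was added after the data were seen.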

Additional observations from a re-analysis of the deposited data

How the results depend on the processing

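No alternative put any of the 10 genes past the threshold, and the lowest adjusted p over 16 alternatives was 0.0712 (Mlxipl without aged replicate 2). With DESeq2, 5 of the 10 (Acly, Acaca, Fasn, Scd1 and Mlxipl) had no p and so could not have passed. The sign was kept in 140 of 160 pairs of gene and alternative. Scd2 and Srebf1 kept theirs in all. The 20 reversals were as follows. Leaving out 1 library at a time gave log2 fold changes of -0.68 to 2.41 (Acly), -0.28 to 1.14 (Me1), -0.93 to 1.65 (Acaca), -1.24 to 2.93 (Fasn), -1.61 to 2.58 (Elovl6), -1.49 to 2.05 (Scd1), -1.65 to 0.76 (Mlxipl) and -1.19 to 2.09 (Thrsp), where each negative value is the fit without aged replicate 2. In the same fits the median of the 10 ranged from -1.08 to 1.75, the genes called from 0 to 110, and the difference in Scd1 share from -3.83 to 4.21 percentage points. It was -0.41 without young replicate 3. Without young replicate 1 and aged replicate 2 the median was -0.47, with Acaca at -0.44, Fasn at -0.41, Elovl6 at -0.96, Scd1 at -1.17, Mlxipl at -1.71 and Thrsp at -0.50; 0 genes were called by edgeR, with 2766 at an unadjusted p under 0.05. DESeq2 called 338 genes and the adipocyte covariate 1, with Mlxipl at -0.52. With all libraries that median, 1.27 by edgeR, was 0.23 with the replicate block, 0.24 with the covariate, and 0.18 and 0.12 on log2 FPKM plus 1 and plus 0.1. On log2 FPKM plus 1, Scd1 was at -0.075 and Mlxipl at -0.43, and the median of all genes was -0.12. On log2 FPKM plus 0.1 they were at -0.083 and -0.72, and the median of all genes was -0.19. With the replicate block Mlxipl was at -0.57 and the Scd1 share differed by 1.18 points (exact sign permutation p = 1, smallest possible 0.25). Same-numbered libraries deviated together with correlations of 0.0792, 0.134 and 0.128, not all above 0.1, so the mice were not taken as paired. With 3 mice a group, the spread of the members' median (SD 1.58 on the log2 scale) exceeds its size. Beyond the libraries left out, the cause of these shifts was not tested.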

Other observations

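The genes whose log2 CPM most resembled the mean of the 10 genes over the 6 libraries were Aacs, Pygl, Slc25a48, Flad1, Me3, Ppp2r5a, Pdss2 and Aldh1a7, out of 14075 genes averaging 1 CPM or more. Aacs, which activates acetoacetate in the cytosol for lipid synthesis, had a correlation of 0.99 (0.98 without aged replicate 2). It was at 37.1, 23.3 and 20.1 CPM in young and at 14.7, 104.9 and 13.9 CPM in aged aorta, the order of Fasn. Pygl, the glycogen phosphorylase known from liver, had a correlation of 0.99 with 216.6 CPM in aged replicate 2 and 13.2 to 54.5 CPM elsewhere. Slc25a48 was at 6.07 CPM there and at most 0.89 CPM elsewhere, and so met the minimum mean only through that library. Ppp2r5a, a regulatory subunit of protein phosphatase 2A, varied far less, from 113.9 to 176.8 CPM in the other 5 libraries and 238.6 CPM in aged replicate 2. In all, 71 candidates (0.504%) had a correlation of at least 0.95. The correlations are a description of 6 libraries that share the same differences in fat.

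Acacb, the acetyl-CoA carboxylase whose malonyl-CoA restrains fatty acid oxidation, and Dgat2, which makes triglyceride, are given after their values were seen. Acacb was at 56.8, 66.1 and 26.0 CPM in young and at 24.4, 339.7 and 33.4 CPM in aged aorta. Dgat2 was at 31.6, 127.8 and 17.5 CPM in young and at 12.8, 135.3 and 13.9 CPM in aged aorta, so that for this gene young replicate 2 came close to aged replicate 2, as it did for Adipoq.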
